A study of Rattus norvegicus with 18 samples.

Results

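Genes for collagens, laminins, integrins and their closest basement membrane partners were followed in RNA-seq of rat motor cortex after injury. Members were all gene symbols of the 2 count tables that begin as a collagen chain (Col, a number, a, a number), name a laminin alpha, beta or gamma chain, name an integrin alpha or beta subunit with a number (Itgav included, Itgb1 to Itgb8 for beta), or are Nid1, Nid2, Hspg2 or Fn1. This gave 81 of the 31201 gene symbols in the 2 tables: 44 collagen chains, 11 laminin chains, 21 integrin subunits, the 4 genes for nidogens, perlecan and fibronectin, and Col4a3bp. Col4a3bp is matched only by its first letters, since it encodes a ceramide transfer protein and no collagen.

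Collagens are the structural proteins of the extracellular matrix. Fibrillar collagens form the fibres of meninges, large vessels and scars, whereas type IV collagen builds the sheet-like network of basement membranes. Laminins are trimers of an alpha, a beta and a gamma chain that form the second network of that sheet, and nidogens and perlecan link both networks. Integrins are heterodimeric receptors that bind these proteins, the alpha chain largely deciding which one, and connect them to the cytoskeleton. In the brain, basement membranes surround endothelial cells and pericytes and underlie the meninges and the astrocyte endfeet, and integrin beta 2, the product of Itgb2, is the shared beta chain of the leukocyte and microglial integrins.

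The study holds 18 polyA RNA libraries in 6 groups of 3. At day 7 after injury these were from males, labelled inj (numbers 2, 3 and 4) and Sham (1, 1-RNA and 3). At day 30 they were labelled In (numbers 1, 2 and 3 in each sex, written Ln in the titles) and S (1, 2 and 4 in males, 1, 2 and 3 in females). The labels do not spell out In and S, give no strain, age or kind of injury, and do not say whether libraries came from separate animals, so p-values measure only the spread between these libraries. Sham 1 and Sham 1-RNA share a number and no source used here says whether they are 1 sample; their counts differed by more than sampling noise (a chi-square of 31.8 per gene, against 3.27 for Sham 1 and Sham 3), which does not show that they are separate samples. They are counted here as 2 libraries, and the Sham n of 3 rests on that; with their counts summed the day 7 calls were again 25 members higher and 2 lower.

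Depth was 14650528 to 17013273 counts in inj, 2683105 to 3014083 in Sham and 14532252 to 27849794 at day 30. Levels are CPM, a gene's counts scaled to a common library total, after TMM scaling. A library's 3 counts, the limit that a count of 0 allows, correspond to 0.995 to 1.12 CPM in Sham and 0.108 to 0.206 CPM in all others. The series text calls the material enriched neurons, but markers of other cells were high throughout. At day 7 the summed level of 12 neuronal markers was 5568 to 6927 CPM and that of 11 oligodendrocyte markers 61327 to 208455 CPM, and 11 endothelial markers each had reads. In such mixed tissue, fewer cells of a type and less RNA per cell cannot be told apart.

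The day 7 table lists 50 members, of which 49 passed the filter on low counts (Itgb7, with 48 counts in all, did not). The day 30 table lists all 81, of which 70 passed. Of those that did not pass at day 30, Col1a2, Col10a1, Col23a1 and Itga9 had no read in any library. The 31 members listed only at day 30 include Col4a2, Nid1, Hspg2, Itgav, Lama2, Lamb1, Col6a1 and Itga3, so that no day 7 value exists for them here. A zero in 1 table is not a measure of the tissue: 310 of the 12397 genes in both tables had at least 100 counts at day 7 and none at day 30, among them the smooth muscle gene Myh11 (18010 and 0) and Col23a1 (171 and 0). Levels are therefore compared only within a day.

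In males at day 7, genes of the basement membrane and its receptors were higher in inj than in Sham. Of the 49 members tested, 25 rose and 2 fell. The 2 that fell, Col6a4 and Itga10, passed the filter on low counts through Sham, where they were high. Col4a4, among those that rose, passed only through inj. The directions of these members were thus fixed by the filter. Calls are at a Benjamini-Hochberg adjusted p below 0.05 over 11786 genes in the quasi-likelihood test of edgeR. Over all genes tested, 19.3% rose and 15.4% fell. The median log2 fold change was 0.91 for the members and -0.00 for all genes. The libraries of the groups did not overlap for 26 members above and 3 below Sham, where 26.4% and 21.9% of all genes did so. With library totals as the scale the median of all genes moved to 0.28 and that of the members to 1.20, the members' counts became 27 and 2, and the shares of all genes that rose and fell became 28.6% and 8.12%.

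**Figure D1:**
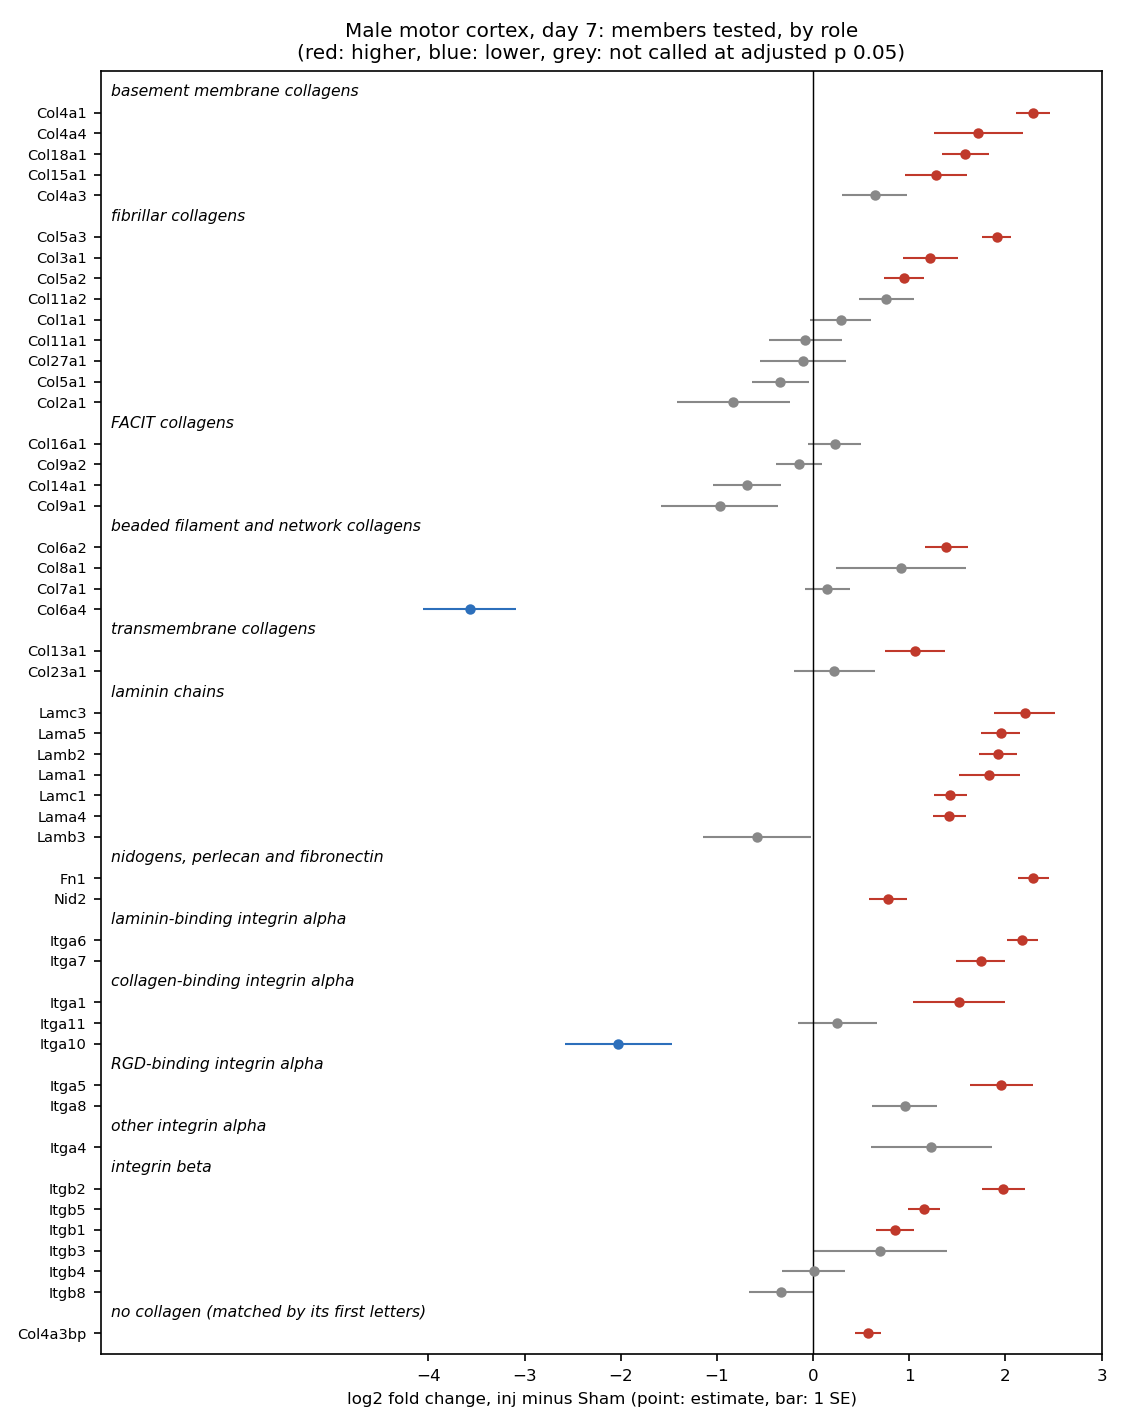
Log2 fold change (inj minus Sham, x axis) of 48 of the 49 members tested at day 7, by role (y axis), with bars of 1 standard error from edgeR. The 25 members that rose are red and the 2 that fell (Col6a4 and Itga10) are blue. The filter on low counts fixed the direction of Col6a4, Itga10 and Col4a4. Of the laminin chains 6 rose, as did 4 of 5 basement membrane collagens, and none of the 4 FACIT collagens was called.

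Among basement membrane collagens, 4 of 5 tested rose, with the direction of Col4a4 fixed by the filter, as given below. Col4a1, a chain of the type IV network found in nearly every basement membrane, was at 178, 138 and 127 CPM in inj 2, 3 and 4 and at 26.6, 30.2 and 33.9 CPM in Sham 1, 1-RNA and 3. Every inj library lay far above every Sham library, and the fold was 4.87 (log2 2.29 ± 0.18 SE, adjusted p = 2.4e-05, edgeR). Col18a1, whose product carries endostatin, was at 47.9, 44.6 and 51.8 CPM in inj and at 10.7, 24.0 and 13.1 CPM in Sham. The groups did not overlap, although Sham 1-RNA lay nearer to inj than the other Sham libraries, and the log2 difference was 1.58 ± 0.25 (adjusted p = 0.000928, edgeR).

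Col15a1 and Col4a4 also rose, by 1.28 ± 0.32 and 1.72 ± 0.46 on the log2 scale (adjusted p = 0.0126 and 0.017, edgeR), from a total of 22 and 7 counts in the 3 Sham libraries. Neither was called when Sham 3 was left out (adjusted p = 0.0567 for Col15a1 and 0.0652 for Col4a4). Col4a4 passed the filter only through inj, where it was high, so the direction of its call was fixed by the filter. Only 10 alternatives tested Col4a4. The remaining one, Col4a3, had 6.19 to 13.7 CPM in inj and 6.16 to 7.38 CPM in Sham, and its groups overlapped (log2 0.64 ± 0.34, adjusted p = 0.175). Its product joins those of Col4a4 and Col4a5 in the type IV network of some specialised basement membranes.

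Type IV collagen genes lie in head-to-head pairs, and their start sites and those of 3 other members that rose are shown for this arrangement and for a GC-rich motif. In RefSeq's GRCr8 annotation 62 of the 81 members have a promoter entry. The starts of Col4a1 and Col4a2 on chromosome 16 are separated by 76 bases, those of Col4a3 and Col4a4 on chromosome 9 by 412 and those of Col4a5 and Col4a6 on the X chromosome by 1414. The first line below is the whole stretch between Col4a1 and Col4a2 (chr16:84885521-84885596, plus strand), and the others are the 100 bases before the start of the fibrillar collagen gene Col5a3 (chr8:27625949-27626048, minus strand) and the laminin genes Lama5 (chr3:187695975-187696074, minus strand) and Lamc1 (chr13:68051987-68052086, minus strand). Capitals mark the GC box GGGCGG or the CCAAT box CCAAT on either strand.
Col4a1-Col4a2 gap: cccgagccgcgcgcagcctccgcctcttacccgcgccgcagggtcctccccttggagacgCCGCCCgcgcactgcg
Col5a3: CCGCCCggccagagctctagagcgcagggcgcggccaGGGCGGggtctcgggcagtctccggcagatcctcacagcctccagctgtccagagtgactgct
Lama5: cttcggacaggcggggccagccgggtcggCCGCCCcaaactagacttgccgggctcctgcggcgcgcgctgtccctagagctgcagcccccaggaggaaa
Lamc1: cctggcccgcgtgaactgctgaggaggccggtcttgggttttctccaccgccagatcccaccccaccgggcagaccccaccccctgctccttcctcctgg

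The gap between Col4a1 and Col4a2 is 78.9% G or C and holds 1 GC box, Col5a3 holds 2, Lama5 holds 1, and Lamc1 holds neither motif in these 100 bases. Over windows of 300 bases (250 before and 50 after the start), GGGCGG stood on either strand in 55.4% of the members' 65 windows and in 33.1% of all 33469. The share with CCAAT was 27.7% against 37.5%, and the share with TATAAA was 9.23% against 14.2%. These matches are a description of the letters and were not tied to the measured changes.

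Fibrillar collagens gave a mixed picture, with 3 of 9 called, all higher in inj. Col5a3, a minor fibril chain, was at 58.5, 56.4 and 51.6 CPM in inj and at 15.6, 15.3 and 13.5 CPM in Sham. Its libraries were tight within each group and well apart between them, at a fold of 3.76 (log2 1.91 ± 0.15, adjusted p = 2.49e-05, edgeR). Col3a1, the main collagen of elastic connective tissue, was at 90.5, 69.96 and 79.6 CPM in inj and at 24.99, 54.6 and 23.1 CPM in Sham, with Sham 1-RNA the highest of its group. It rose by 1.22 ± 0.28 on the log2 scale (adjusted p = 0.00823, edgeR), and the third, Col5a2, by 0.95 ± 0.21 (adjusted p = 0.00603).

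Col1a1, the major chain of type I collagen, was not called. Its levels were 48.8, 45.9 and 49.7 CPM in inj and 26.2, 66.9 and 24.6 CPM in Sham, so that Sham 1-RNA lay above all inj libraries and the other Sham libraries below them (log2 0.29 ± 0.32, adjusted p = 0.524, edgeR). Without Sham 1-RNA the difference was 0.91 (adjusted p = 0.000859), and limma-voom with sample weights gave 0.73 (adjusted p = 0.0181). Sham 1-RNA also had the highest summed level of fibroblast and meningeal markers among Sham libraries (351 CPM, against 217 and 198) and the lowest of oligodendrocyte markers (71051 CPM, against 208455 and 193546); the part of either in these values was not tested.

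Of collagens that decorate fibrils (the FACIT group) 0 of 4 were called, at a median of -0.42, beside 19.3% higher and 15.4% lower over all genes. In the beaded filament and network group, Col6a2, a chain of the type VI microfibrils, rose by 1.39 ± 0.22 (adjusted p = 0.00106), with 37.9 to 45.3 CPM in inj against 10.8 to 21.8 CPM in Sham. Col6a4, a rarer type VI chain, fell, at 0.310, 0.160 and 0.373 CPM in inj against 3.28, 3.27 and 3.85 CPM in Sham (log2 -3.57 ± 0.49, adjusted p = 0.000424, edgeR). These levels rest on few reads, 15 counts in the 3 inj libraries and 27 in the 3 shallower Sham libraries. With inj thinned to the depth of Sham, Col6a4 no longer passed the filter. In the main fit it passed the filter only through Sham, where it was high, so the direction of its call was fixed by the filter. Col7a1 and Col8a1 were not called, and of the membrane-spanning collagens Col13a1 rose by 1.06 ± 0.31 (adjusted p = 0.0244) but not in 6 of the alternatives tried, whereas Col23a1 gave 0.22 ± 0.42.

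**Figure D2:**
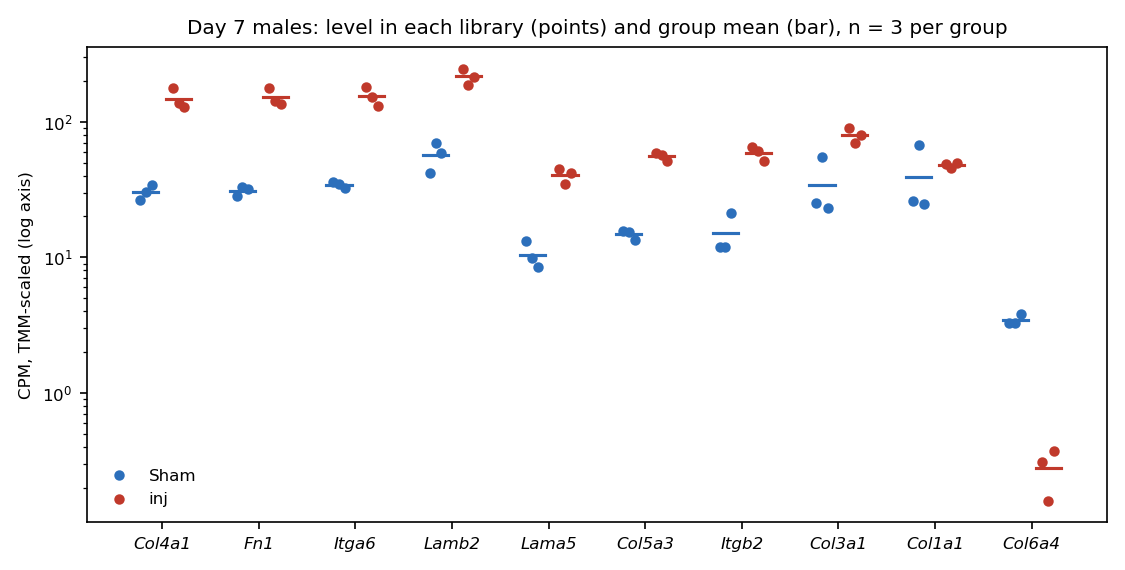
Level in CPM (log axis) of 10 members in each day 7 library, Sham in blue and inj in red, with a bar at the mean of 3 libraries. For Col4a1 the inj libraries sit at 127 to 178 CPM and the Sham libraries at 26.6 to 33.9 CPM, whereas for Col1a1 the Sham 1-RNA library (66.9 CPM) lies above all inj libraries and for Col6a4 the order is turned.

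Laminin chains rose broadly, with 6 of 8 tested called and a median log2 difference of 1.63. Lamb2, the beta 2 chain of vascular and synaptic laminins, was at 246, 186 and 215 CPM in inj and at 41.8, 69.5 and 58.9 CPM in Sham (fold 3.79, log2 1.92 ± 0.20, adjusted p = 8.73e-05). Lama5, an alpha chain of mature vascular basement membrane, was at 44.7, 34.5 and 41.9 CPM in inj and at 13.1, 9.82 and 8.46 CPM in Sham (fold 3.87, log2 1.95 ± 0.20, adjusted p = 8.76e-05). In both, every inj library was above every Sham library.

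Lama4, the other alpha chain typical of endothelium, rose by 1.42 ± 0.17 (adjusted p = 0.000237) and Lamc1, the gamma chain of most laminins, by 1.43 ± 0.17 (adjusted p = 0.000184). Lama1, an alpha chain of meningeal and embryonic basement membrane, had 13.4 to 15.7 CPM in inj and 1.64 to 5.46 CPM in Sham (log2 1.83 ± 0.32, adjusted p = 0.00166). Lamc3 had 36.3 to 52.9 CPM in inj and 4.92 to 14.9 CPM in Sham (log2 2.20 ± 0.31, adjusted p = 0.000563). Lamb3, a beta chain typical of epithelia, had a log2 difference of -0.59 ± 0.56 and was not called.

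Fn1, which encodes fibronectin, had the smallest p of all members. Its levels were 177, 143 and 136 CPM in inj and 28.3, 32.7 and 31.9 CPM in Sham, a fold of 4.89 (log2 2.29 ± 0.16, adjusted p = 1.94e-05, edgeR). Nid2, a nidogen that links laminin to type IV collagen, rose less, from 8.36 to 11.5 CPM in Sham to 15.7 to 17.8 CPM in inj (log2 0.78 ± 0.20, adjusted p = 0.012), and was not called without inj 2 (adjusted p = 0.0559).

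Of the integrin alpha chains, both laminin-binding ones listed at day 7 rose. Itga6 was at 182, 152 and 130.2 CPM in inj and at 35.6, 34.6 and 32.7 CPM in Sham (fold 4.51, log2 2.17 ± 0.16, adjusted p = 2.17e-05). Itga7 was at 45.9, 30.3 and 41.9 CPM in inj and at 7.38, 14.2 and 13.5 CPM in Sham (log2 1.74 ± 0.25, adjusted p = 0.000627). Itga5, the alpha chain of the classical fibronectin receptor, also rose, with 12.5 to 16.5 CPM in inj against 1.92 to 5.74 CPM in Sham (log2 1.96 ± 0.33, adjusted p = 0.00135).

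Of the 3 collagen-binding alpha chains tested, 1 was called higher and 1 lower. Itga1 rose by 1.52 ± 0.48 (adjusted p = 0.0335), Itga10 fell by 2.03 ± 0.55 (adjusted p = 0.018), and Itga11 stood at 0.25 ± 0.41 without a call. Itga1 was not called under 6 of the alternatives, and Itga10 was not called without Sham 3 (log2 -1.31, adjusted p = 0.149), the Sham library in which its level was 6.16 CPM against 2.46 and 1.82 CPM. Itga10 rests on few reads, 45 counts in inj and 27 in the shallower Sham. The inj libraries alone would not have passed it. Itga10 was thus tested through Sham, where it was high, so the direction of its call was fixed by the filter. Only 10 alternatives tested Itga10, and the one with inj thinned to the depth of Sham was not among them. Itga8, another receptor chain for the RGD motif of fibronectin-type ligands, lay just short of the threshold (0.95 ± 0.34, adjusted p = 0.0524). It was called higher by DESeq2 (adjusted p = 0.0487) and by limma-voom with sample weights (adjusted p = 0.038). The same held with library totals as the scale, without a filter and without inj 4, and under no other alternative.

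Of the integrin beta chains, 3 of 6 tested rose. Itgb1, the common partner of most matrix-binding alpha chains, was at 316, 293 and 285 CPM in inj and at 199, 117 and 180.4 CPM in Sham (log2 0.85 ± 0.19, adjusted p = 0.0074). Itgb5, a partner of the alpha v chain, rose by 1.15 ± 0.17 (adjusted p = 0.000585). Itgb2 was at 65.5, 60.6 and 51.4 CPM in inj and at 11.9, 12.002 and 21.2 CPM in Sham (log2 1.98 ± 0.22, adjusted p = 0.000147), and its leukocyte alpha partners outside the member pattern, Itgam (1.81 ± 0.30, adjusted p = 0.00131) and Itgal (1.56 ± 0.33, adjusted p = 0.00533), rose with it. Itgb3, Itgb4 and Itgb8 were not called, at 0.69 ± 0.69, 0.00 ± 0.33 and -0.33 ± 0.33. Col4a3bp, the ceramide transfer protein, rose by 0.57 ± 0.14 (adjusted p = 0.00935).

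Other genes of the matrix pathway were counted as lists at day 7, beside 19.3% higher and 15.4% lower over all genes. Of genes for collagen folding, modification and cross-linking, 12 of 25 rose and 1 fell; they include the galactosyltransferase gene Colgalt1 (2.15 ± 0.20), the prolyl hydroxylase gene P4ha1 (1.33 ± 0.17) and the collagen chaperone gene Serpinh1 (1.56 ± 0.24). Of matrix metalloproteinases and their inhibitors, 7 of 15 rose and 0 fell, among them Mmp2 (2.38 ± 0.25) and Timp3 (2.13 ± 0.18). Of genes for TGF-beta ligands, latency and receptors, 13 of 20 rose and 0 fell, with Tgfb1 at 1.79 ± 0.17 and the endothelial co-receptor gene Eng at 2.71 ± 0.22.

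Of matricellular and proteoglycan partners, 16 of 28 rose and 1 fell, with the basement membrane gene Agrn at 1.95 ± 0.19 and Fbn2 at -3.49 ± 0.42. Of integrin adaptors, 12 of 30 rose and 3 fell, with the filamin gene Flna at 3.20 ± 0.17. Of matrix receptors other than integrins, 8 of 13 rose and 1 fell, with the laminin receptor gene Bcam at 3.14 ± 0.15 and the dystroglycan gene Dag1 at 1.34 ± 0.14. Every gene named with a value from these lists was called by edgeR, with adjusted p from 8.81e-06 to 0.000808.

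Markers of vessels and of microglia moved with these genes. All 11 endothelial markers tested rose, at a median log2 difference of 2.72, and their summed level was 1952 to 2358 CPM in inj against 279 to 331 CPM in Sham. All 12 markers of pericytes and smooth muscle rose (median 2.61; 1464 to 1638 against 239 to 350 CPM). Of 12 markers of microglia and macrophages 10 rose and 0 fell (2207 to 2410 against 458 to 595 CPM), and of 9 fibroblast and meningeal markers 7 rose and 1 fell (391.5 to 488 against 198 to 351 CPM). Neuronal markers gave 2 higher and 2 lower of 12, at 5568 to 6927 against 6149 to 6836 CPM. Of 9 oligodendrocyte precursor markers, which include Pdgfra and Cspg4 of the lists above, 5 rose and 0 fell (median 1.35). Astrocyte markers gave 4 higher and 3 lower of 11, at 3632 to 4931 against 7293 to 7839 CPM. Oligodendrocyte markers gave 1 higher and 4 lower of 11. The summed level of the listed members was 1987 to 2427 CPM in inj and 922 to 961 CPM in Sham, a smaller ratio than that of the endothelial sum; the part of these cell types, or of the shallower Sham libraries, in the members' differences was not tested. With inj thinned to the depth of Sham, 23 members still rose.

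At day 30 in males no member was called between In and S, and neither was any other gene (0% in both directions of 15074 genes by edgeR, with 1232 genes at an unadjusted p under 0.05). The median log2 difference was 0.19 for the 70 members tested and 0.02 for all genes, 8 members had an unadjusted p under 0.05, and the smallest adjusted p was 0.599. The groups did not overlap for 8 members above and 3 below S, where 6.3% and 5.17% of all genes did so. DESeq2 also called 0 members.

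The smallest p-values belonged to Col6a3 (1.38 ± 0.50), Col11a2 (0.80 ± 0.28), Lama2 (1.01 ± 0.38), Col8a2 (2.08 ± 0.77) and Col1a1 (0.65 ± 0.26), all with adjusted p of 0.599 to 0.602 by edgeR's test. Several of these rested on In 1. Col8a2, a chain of the network of Descemet's membrane and of some vessels, was at 11.9, 2.52 and 1.64 CPM in In 1, 2 and 3 and at 1.75, 1.35 and 0.476 CPM in S 1, 2 and 4. Col3a1 was at 91.0, 33.1 and 26.8 CPM in In and at 41.5, 31.9 and 36.4 CPM in S, and Itgb4, the beta partner of Itga6 in hemidesmosomes, was at 33.8, 3.46 and 1.36 CPM against 6.02, 1.25 and 4.19 CPM. Only In 1 was high for Col3a1 and Itgb4, and the other In libraries lay among or below those of S.

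Male In 1 stood apart beyond the members. Its summed oligodendrocyte markers were 10591 CPM, against 48032 to 77700 CPM in the other males, and its blood cell markers 606 CPM, against 40.8 to 126 CPM. Its counts differed from those of In 2 and In 3 with a chi-square of 81.5 and 85.3 per gene, against 15 between these. Lama2, which encodes the laminin alpha 2 chain, was at 10.7, 7.06 and 6.36 CPM in In and at 6.23, 2.88 and 2.38 CPM in S, so that its groups did not overlap whether or not In 1 is counted. Without In 1 the log2 differences were 0.75 for Lama2, 0.74 for Col8a2, 0.72 for Col6a3, 0.28 for Col1a1 and -0.29 for Col3a1, against 0.45 ± 0.39 for Col3a1 with it, and 0 members were called.

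Members that had risen at day 7 gave smaller values in males at day 30, none of them called. Choosing members by their day 7 call favours large day 7 values, so part of this drop can come from the choice itself. Col4a1 stood at -0.19 ± 0.18 and its partner Col4a2 at -0.17 ± 0.18, Fn1 at 0.19 ± 0.16, Lamc1 at 0.03 ± 0.16, Itga6 at -0.02 ± 0.17, Itga5 at 0.19 ± 0.32, Itgb1 at 0.03 ± 0.18 and Itgb2 at 0.40 ± 0.22. Members without a day 7 value gave 0.13 ± 0.21 (Nid1), -0.08 ± 0.18 (Hspg2, which encodes perlecan), -0.10 ± 0.27 (Lamb1) and -0.24 ± 0.18 (Itgav, the alpha v chain).

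The difference between the male effects (In minus S at day 30, less inj minus Sham at day 7) was tested in 1 fit of the 12 male libraries over 11693 genes, with 47 members. The difference was called below 0 for 15 members and above 0 for 1 (adjusted p below 0.05), where 7.71% of all genes were called below and 5.27% above. The 1 above 0 was Col6a4, which passed the filter only through Sham, so that the direction of its day 7 effect was fixed. By sign alone 35 members lay below 0 and 12 above, beside 53.9% of all genes above 0. The members' median was -0.69 and that of all genes 0.07. The lowest p-values were those of Col4a1 (-2.43 ± 0.27, adjusted p = 8.01e-05), Col5a3 (-2.07 ± 0.25, adjusted p = 0.000136), Itga6 (-2.13 ± 0.27, adjusted p = 0.000162) and Fn1 (-2.04 ± 0.26, adjusted p = 0.000196), and 6 laminin chains (Lama1, Lama4, Lama5, Lamb2, Lamc1 and Lamc3) were among the 15. Markers of other cells moved the same way in this contrast. All 11 endothelial markers tested were below 0 (median -2.68), as were 10 of 12 of pericytes and smooth muscle (median -2.29) and 9 of 12 of microglia and macrophages (median -1.998), each called by the same test; their part in the members' differences was not tested. The 2 days also differ in the labels of their groups, in the depth of their controls and in how their tables were made, and these cannot be told apart from time.

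**Figure D3:**
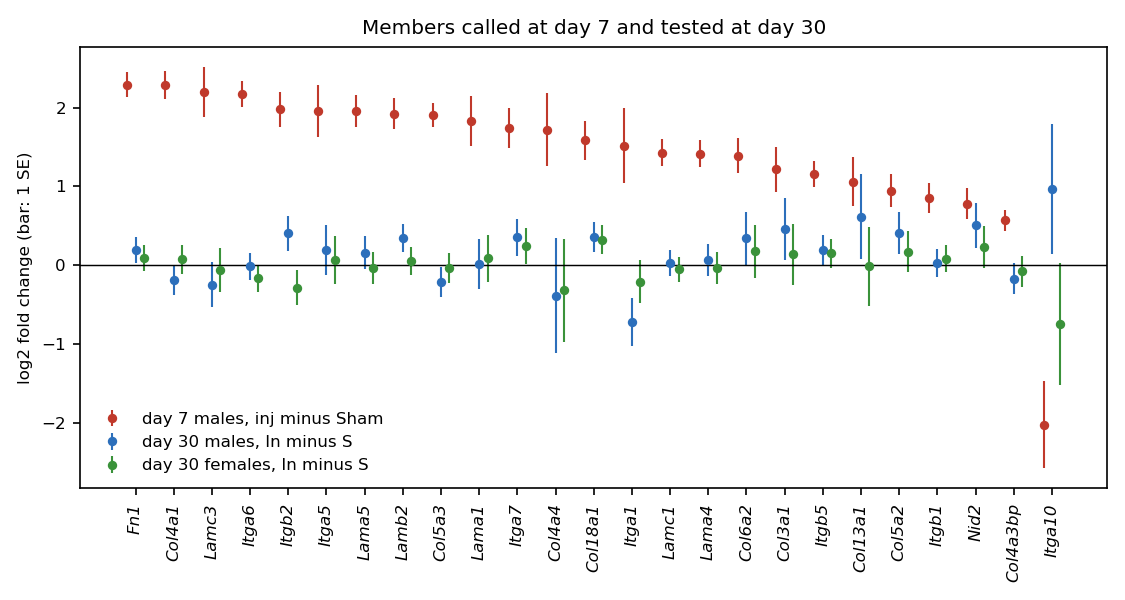
Log2 fold change (y axis, bars of 1 standard error) of the 25 members called at day 7 and tested at day 30 (x axis), for inj minus Sham at day 7 in males (red) and In minus S at day 30 in males (blue) and females (green). At day 30 Fn1 gave 0.19 in males and 0.09 in females, against 2.29 at day 7; no day 30 value shown was called.

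In females at day 30 no member was called between In and S either, among 0.0332% of all genes that rose and 0% that fell (5 and 0 of 15074). The median log2 difference was 0.04 for the members and -0.00 for all genes, and 7 members had an unadjusted p under 0.05. The groups did not overlap for 5 members above and 5 below S, where 4.21% and 3.81% of all genes did so. Values of the matrix genes were Col4a1 0.07 ± 0.18, Col4a2 -0.09 ± 0.17, Fn1 0.09 ± 0.16, Lamc1 -0.05 ± 0.16, Hspg2 0.23 ± 0.17, Nid1 -0.14 ± 0.21, Itga6 -0.17 ± 0.17, Itgb1 0.08 ± 0.17, Itgb2 -0.28 ± 0.22 and Col1a1 0.03 ± 0.26.

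The smallest p was that of Col9a3, a chain of a fibril-decorating collagen of cartilage, at 18.2, 17.5 and 22.4 CPM in In and 14.3, 10.3 and 9.20 CPM in S (0.78 ± 0.19, adjusted p = 0.42, edgeR). The next were Col8a2 (2.56 ± 0.72, adjusted p = 0.963), Col8a1 (2.01 ± 0.63), Lama3 (1.32 ± 0.47) and Lama2 (0.86 ± 0.35), the last 3 with an adjusted p of 0.99995 by edgeR's test. Col8a2 was at 4.06, 7.37 and 18.3 CPM in In 1, 2 and 3 and at 1.23, 1.87 and 1.92 CPM in S. Lama3 was at 4.01, 5.11 and 8.11 CPM in In and at 2.60, 2.08 and 2.22 CPM in S, and in both genes the groups did not overlap and In 3 was the highest.

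Itgb6, which encodes an epithelial integrin chain that activates TGF-beta, did not pass the filter: it had 2, 31 and 128 counts in In 1, 2 and 3 and 0, 0 and 1 in S. DESeq2 called it (adjusted p = 0.0206), and so did edgeR without In 1 (adjusted p = 0.0416). In the latter fit Itgb6 passed the filter only through In 2 and In 3, where it was high, so its direction was fixed by the filter. Choroid plexus markers moved with these genes. Of 10 such markers listed, 2 had no read in any library, and their summed level was 28.0, 85.3 and 258 CPM in In 1, 2 and 3, against 1.28 to 3.34 CPM in S and 0.725 to 4.04 CPM in males. All 7 tested were above 0 and 2 rose (Folr1 and Tmem72, adjusted p = 0.0358 for each, edgeR), as did the ciliated cell gene Foxj1 (adjusted p = 0.0359). Folr1, Prlr, Tmem72 and Cldn2 had few or no reads elsewhere and passed the filter only through the female In libraries. Their direction was thus fixed by the filter, and the count above 0 is no separate result. Ttr, the most typical of them, is listed at 0 in every day 30 library. The part of choroid plexus in the values of Col8a1, Col8a2, Lama3 and Itgb6 was not tested.

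**Figure D4:**
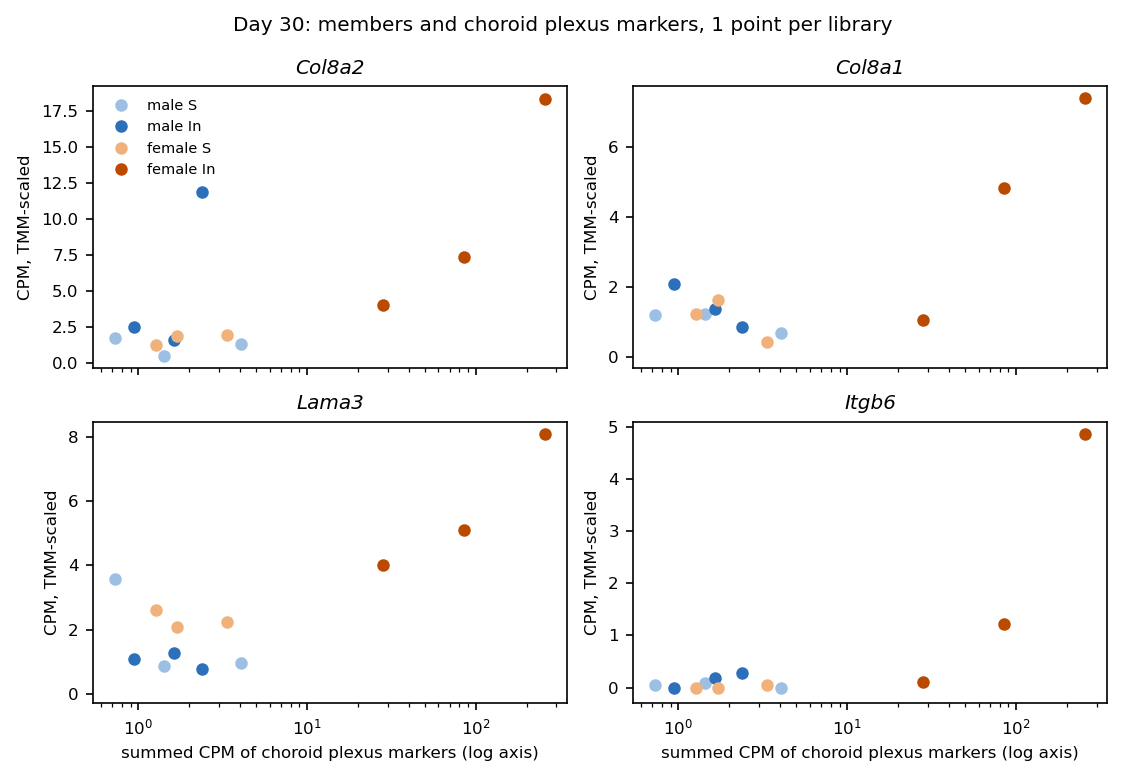
CPM of Col8a2, Col8a1, Lama3 and Itgb6 (y axes) against the summed CPM of choroid plexus markers (x axis, log scale) in the 12 day 30 libraries, 1 point each. The 3 female In libraries (28.0, 85.3 and 258 CPM of markers) lie to the right of all others, and within them the 4 genes stand in the order of the marker sum; male In 1 is the high Col8a2 point at left (11.9 CPM).

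No member was called for a difference of the In effect between the sexes, and neither was any other gene (0% in both directions, 619 genes at an unadjusted p under 0.05; DESeq2 called 0 members). The members' median difference, female minus male, was -0.12 against -0.01 for all genes, and the smallest p-values were those of Lama3 (2.19 ± 0.71), Col11a2 (-1.24 ± 0.40), Col27a1 (-1.73 ± 0.60), Itgb8 (0.77 ± 0.31) and Itgb2 (-0.69 ± 0.31), each with an adjusted p of 0.94 by edgeR's test. Col27a1, a fibrillar collagen, was at 44.5 CPM in male In 1 and at 8.24 to 18.9 CPM in the other day 30 libraries.

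Between the sexes at day 30, Fn1, Col4a1, Lamc1, Itga6 and other matrix and receptor genes stood higher in female libraries. Among S libraries 9 of 70 members were higher in females and 0 lower, where 1.7% of all genes were higher and 1.27% lower. Among In libraries, compared after the data were seen, 15 were higher and 0 lower, where 6.1% and 6.59% of all genes were. The members' medians were 0.46 and 0.31, against 0.03 in both for all genes. Not all roles followed. Among fibrillar collagens 0 of 10 were called, with 3 below 0 in S (median 0.32) and 7 in In (median -0.39). Among beaded filament and network collagens 0 of 9 were called, with 2 below 0 in S and 6 in In. The groups did not overlap for 25 members above and 1 below in S (15.2% and 11.9% of all genes) and for 19 above and 1 below in In (17.6% and 15.5%). The comparisons share no library, and 8 members were higher in both, 8 of the 9 and 8 of the 15.

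Fn1 was at 119, 112 and 121 CPM in female S and 127, 121 and 127 CPM in female In, and at 65.5, 44.5 and 55.7 CPM in male S and 51.4, 69.8 and 68.7 CPM in male In. All female libraries lay above all male ones, with log2 differences of 1.08 ± 0.16 in S (adjusted p = 0.00279) and 0.98 ± 0.16 in In (adjusted p = 0.00265). Col4a1 gave 0.77 ± 0.18 and 1.04 ± 0.18, Lamc1 0.85 ± 0.16 and 0.77 ± 0.16, and Itga6 0.86 ± 0.17 and 0.71 ± 0.17. Among the others higher in both, Itga3, a laminin-binding chain, gave 0.64 ± 0.17 and 0.81 ± 0.17, and Itga1, a collagen-binding chain, gave 1.19 ± 0.28 and 1.71 ± 0.30.

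Col4a3 was at 6.38, 4.87 and 5.73 CPM in female S and 5.66, 3.96 and 5.45 CPM in female In, and at 1.88, 2.98 and 1.24 CPM in male S and 1.05, 1.44 and 2.09 CPM in male In. Its differences were 1.48 ± 0.36 and 1.71 ± 0.37, and those of Col12a1, a FACIT collagen, 1.52 ± 0.38 and 1.62 ± 0.39. Both type IV genes of the chromosome 16 pair were higher in females in In (Col4a2 by 0.66 ± 0.18, adjusted p = 0.0229), whereas in S Col4a2 gave 0.58 ± 0.18 without a call (adjusted p = 0.083). Several fixed members were called in neither comparison. Col1a1 gave 0.14 in S and -0.48 in In, and Col3a1 -0.39 and -0.70. Lama2 gave 1.06 and 0.90, Lamb1 -0.04 and 0.35, and Nid1 0.46 and 0.20. Itga5 gave 0.46 and 0.33, and Itgav -0.005 and 0.41.

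**Figure D5:**
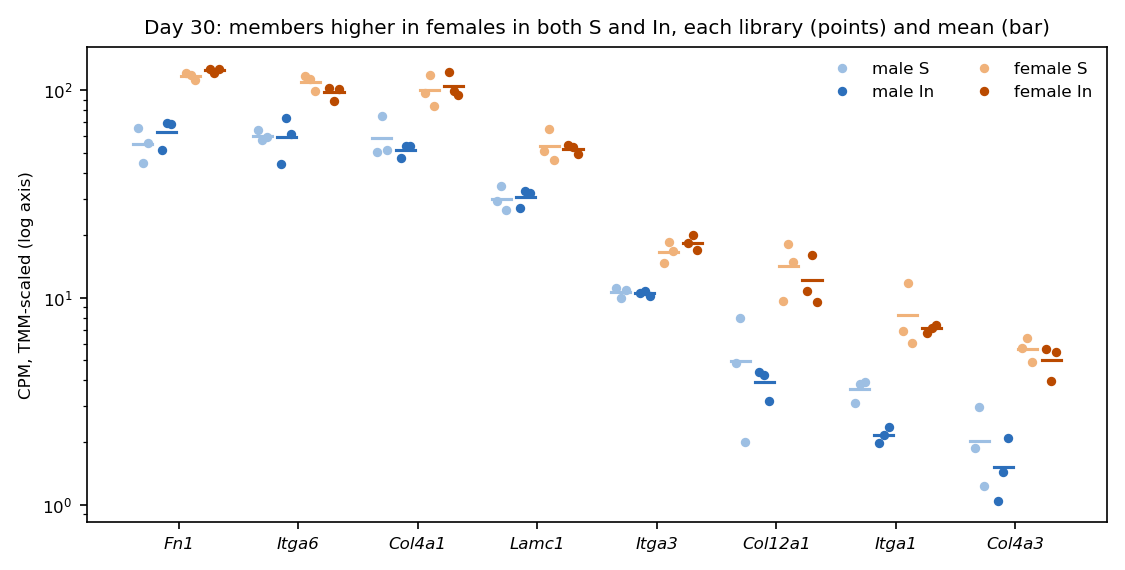
CPM (log axis) of the 8 members higher in females among both S and In libraries at day 30, each library as a point and the mean of 3 as a bar. For Fn1 the 6 female libraries sit at 112 to 127 CPM and the 6 male libraries at 44.5 to 69.8 CPM, with S and In of the same sex side by side.

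Itgb2 was called higher in females in S (1.15 ± 0.22, adjusted p = 0.0136) and not in In (0.46 ± 0.22, adjusted p = 0.178). The difference of these is the sex difference of the In effect (-0.69 ± 0.31), which was not called. Hspg2 (0.89 ± 0.18), Itgb8 (1.04 ± 0.22), Itgb1 (0.63 ± 0.18), Lama3 (2.46 ± 0.52), Col4a3bp (0.72 ± 0.20) and Itgb3 were called in In. Itgb3, the beta chain of the platelet and endothelial vitronectin receptors, had 19, 25 and 26 counts in female In and 0, 1 and 0 in male In, too few in males for a fold (adjusted p = 0.0232). In S it had 29 to 38 counts in the female libraries and 12, 0 and 0 in the male ones. Itgb3 passed the filter only through female libraries, so the direction of its In call was fixed by the filter.

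Sex at day 30 went with other differences between the libraries. Genes encoded by mitochondria took 27.1 to 37.5% of counts in female libraries and 53.7 to 60.3% in male ones. With library totals as the scale the median of all genes moved to 0.88 in S and 0.94 in In, that of the members to 1.31 and 1.21, and 47 and 43 members were higher, while 59.5% and 59.1% of all genes were. With mitochondrial genes left out of the totals these became 0.21 and 0.23 for all genes, 0.65 and 0.51 for the members, and 15 and 17 members were higher, beside 5.16% and 14.7% of all genes (0.555% and 3.49% lower). Endothelial markers summed to 1174 to 1490 CPM in females and 950.4 to 1127 CPM in males, with 4 of 11 higher in S and 6 of 11 in In and 0 lower. Of pericyte and smooth muscle markers 4 of 11 were higher in S (median 0.90) and 4 of 11 in In (median 0.48), and 0 lower. Choroid plexus markers were higher in females in In for 7 of 7 tested (median 6.14), and for 0 of 7 in S (median 0.08). Several of these markers passed the filter only through female In, which fixed their direction in In. Lama3, called in In, is among the members that moved with these markers in female In. The part of these cell types in the members' values was not tested, and no label says whether both sexes were processed together, so that sex and processing cannot be told apart.

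The S calls rested on single libraries more than the In calls. Without female S 1 or without male S 4, 1 member was higher in S, whereas 10 to 15 members were higher in In with each library left out and 8 of the 15 In calls held in every alternative tried that tested them. Of the 9 S calls, Fn1 was lost only with the replicate number as a block (adjusted p = 0.0585).

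Across other matrix genes, the sex comparison called 4 of 20 genes for TGF-beta ligands, latency and receptors in S and 3 of 20 in In, all higher in females, with Tgfbr2 at 1.14 ± 0.14 and 1.18 ± 0.14 and Tgfbr1 at 1.39 ± 0.23 in each. Dag1 was higher by 0.80 ± 0.14 and 1.003 ± 0.142. Of integrin adaptors 5 of 31 were higher and 0 lower in S and 7 higher and 3 lower in In, with Actn1 at 1.21 ± 0.16 and 1.24 ± 0.16. Of the other lists, 2 of 27 genes for collagen folding and modification were higher in S and 1 of 27 in In, 0 and 2 of 29 matricellular partners, 0 and 1 of 13 metalloproteinases and inhibitors, 1 and 3 of 15 other matrix receptors and 0 and 0 of 4 leukocyte integrins, with 0 lower in each. Over all genes 1.7% were higher in S and 6.1% in In. In the within-sex comparisons at day 30, 0 genes of these lists were called in either direction.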

How the data were processed

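PolyA RNA of rat motor cortex was profiled in 18 libraries; per the labels' protocols, a PureLink kit served for extraction and Novogene prepared the libraries. The authors deposited 1 table of raw counts per gene symbol for each day. HISAT2, edgeR and the rn6 genome are named in the submitters' processing notes without versions or settings; whether counting used strand is not given in these sources. The day 30 table ends with 7 summary lines, which were left out (ambiguous reads were 0.953 to 2.18%). The deposited day 7 table is shorter and holds no mitochondrial genes.

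Groups follow day, sex and condition as labelled. The count models were fitted with edgeR 4.0.16 under R 4.3.3 (filterByExpr, TMM, robust quasi-likelihood test) and Benjamini-Hochberg adjustment over all genes tested at 0.05, in 1 fit for each day and 1 for the 12 male libraries. Common biological coefficients of variation were 0.175, 0.259 and 0.226. A standard error is the absolute log2 fold change divided by the square root of F. The scripts were tested on simulated counts. Alternatives were DESeq2 1.42.0, limma 3.58.1 (voom with sample weights), other scalings and filters, each library left out, Sham 1 and 1-RNA summed, only the compared groups, and the replicate number as a block. Added after the data were seen were thinned inj libraries, the comparison of sexes within In, male In 1 and male S 2 left out together, and library totals without mitochondrial genes. Figures were drawn with matplotlib 3.10.9.

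Members, lists and tests were chosen with earlier results of these data known. Named per comparison were the 25 called members with the smallest adjusted p (or the 5 with the smallest p), 15 fixed members, members without reads, and up to 5 genes of each pathway list and 4 of each marker list. 1 member is not reported by name here. Intervals and limits from counts cover counting error only.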

Additional observations from a re-analysis of the deposited data

Results flagged for a closer look

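For 16 members the male effect at day 30 differed from that at day 7, as tested by edgeR's quasi-likelihood test of the difference itself with adjusted p below 0.05; values are log2 differences, day 30 less day 7. Matrix genes were Col4a1 (-2.43), Col5a3 (-2.07), Fn1 (-2.04), Col18a1 (-1.17), Lama1 (-1.77), Lama4 (-1.30), Lama5 (-1.74), Lamb2 (-1.52), Lamc1 (-1.34) and Lamc3 (-2.40). Receptor genes were Itga1 (-2.19), Itga6 (-2.13), Itga7 (-1.33), Itgb2 (-1.52) and Itgb5 (-0.90).

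Among these 16, Col6a4 alone lay above 0, at a fitted 6.88. It rests on 15 counts in inj, 27 in Sham, 10 in male In and 1 in male S. The fitted size thus depends on how a near absence of reads is handled and is not read as a fold. Col6a4 passed the filter only through Sham, which fixed the direction of its day 7 effect. Its place above 0 is therefore no separate result. Of the 16, 11 were called under every alternative that tested them; without inj 2 the calls of Col18a1, Itga1, Itga7, Itgb5 and Lama1 were lost (adjusted p = 0.0561 to 0.0805). In the same contrast 11 of 11 endothelial, 10 of 12 pericyte and smooth muscle and 9 of 12 microglial markers were called below 0, and their part in these values was not tested. The day 7 and day 30 controls come from different tables, and day and table cannot be told apart.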

How the results depend on the processing

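At day 7 the 25 members higher in inj numbered 20 to 25 with each library left out and 23 to 27 otherwise; the 2 lower numbered 1 to 2 with each library left out and 0 with inj thinned to the Sham depth, where fewer members were tested. In females at day 30 the 0 higher became 1 by DESeq2 and 0 to 1 with each library left out (Itgb6). For S, female minus male, the 9 higher became 47 with library totals, 15 with library totals without mitochondrial genes, 14 by limma-voom and 1 to 7 with each library left out. For In, female minus male, the 15 higher became 43 with library totals, and the 0 lower became 1 by DESeq2 (Col27a1) and 0 to 1 with each library left out. For the difference between days the 1 higher became 2 by DESeq2 and 1 to 2 with each library left out. The 15 lower became 10 to 17 with each library left out and 18 with library totals, and limma-voom also called Col6a2, Col3a1, Itga5 and Col4a4 below 0. With library totals the S differences of Lamb1 (0.79) and Itgav (0.86) became calls above 0, where the TMM values were -0.04 and -0.00; the cause was not tested beyond the shift of all genes given in the report.

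With the replicate number as a block the 9 S members became 0, and no other count of members moved by over 1.5 times. Between In and S, same-numbered female libraries correlated in their deviations at 0.0584, 0.206 and 0.081 and male ones at 0.125 and 0.0226. Differently numbered ones ran from -0.287 to 0.183 in females and from -0.118 to 0.0755 in males. The main fits did not pair libraries by number. The block in the comparison of sexes joins numbers between females and males, and these correlations, taken within a sex, do not test that pairing. At day 7 the groups share only number 3 and no block could be fitted. Depth limits low members most in Sham, where 3 counts are 0.995 to 1.12 CPM.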
